A study of Mus musculus with 12 samples.

Results

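The genes described here are 9 interferon-stimulated genes whose products sense or act on double-stranded RNA: Oas1a, Oas1b, Oas1g, Oas2, Oas3, Oasl1 and Oasl2 of the 2′-5′-oligoadenylate synthetase (OAS) family, Eif2ak2 (the kinase PKR) and Adar (the adenosine deaminase ADAR1). They were chosen by gene name on the array, each through its probe with the highest mean signal over all arrays, and are 9 of the 20482 genes tested. Expression was measured on 12 one-colour Agilent arrays of mouse bone marrow-derived macrophages, with 3 arrays in each of 4 groups. In all groups the marrow was from female C57BL/6 mice of 6 to 8 weeks and was cultured for 7 days with L929-conditioned medium, a source of macrophage growth factor. Recovered macrophages received lipopolysaccharide (LPS, the endotoxin of Gram-negative bacteria) for 8 h, were rested for 88 h (so the sample descriptions, the protocol giving 2 to 4 days) and were then restimulated for 4 h. Tolerant macrophages were treated alike but rested for only 16 h. Acute macrophages received a single LPS exposure of 4 h, and untreated macrophages received none. Recovered and tolerant cells therefore differ in the length of rest and with it in time in culture, and these cannot be told apart. Both differ from acute cells in the earlier exposure and in time in culture. Cells rested after the first LPS but not restimulated, and untreated cells kept as long as the recovered ones, were not analysed here. The labels call the 3 replicates of a group independent experiments without naming separate animals, so the p-values measure the spread between these arrays.

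OAS enzymes bind double-stranded RNA and make 2′-5′-linked oligoadenylates, which act as second messengers of the antiviral response. PKR binds the same ligand and phosphorylates the initiation factor eIF2α, which stops most translation, while ADAR1 converts adenosine to inosine within RNA duplexes and so keeps self RNA from being sensed. All are classical targets of type I interferon, which LPS induces in macrophages through TLR4 and its adaptor TRIF. The factor that carries the interferon signal to most of these genes, ISGF3, binds interferon-stimulated response elements in promoters.

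Of the 9 genes, 7 had a promoter in the RefSeq table used (GRCm38.p6, 250 bases before to 50 after the transcription start), and none was listed for Oas1b or Oas2. The core of the response element was searched as GAAA, any 2 bases and GAAA, and the STAT site as TTC, any 3 bases and GAA, both on either strand and with overlapping matches counted. The core was found in the promoters of 4 of these 7 genes (Oas1a, Oas1g, Oas3 and Eif2ak2), and 3.99% of all 27025 genes in the table had it. The STAT site was found in 3 of the 7 (Oas1a, Eif2ak2 and one of 3 promoters of Adar), against 9.55% of all genes. The windows below run from 90 bases before to 30 after the start, on the strand of the gene, with the core in capitals. They show the 4 genes with the core beside Oasl1, the member with the largest change and no copy of it.
Oas1a: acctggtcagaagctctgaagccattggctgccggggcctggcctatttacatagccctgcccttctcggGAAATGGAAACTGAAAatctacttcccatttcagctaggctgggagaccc
Oas1g: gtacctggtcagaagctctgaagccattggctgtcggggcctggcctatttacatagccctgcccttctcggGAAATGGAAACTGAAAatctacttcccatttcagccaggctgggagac
Oas3: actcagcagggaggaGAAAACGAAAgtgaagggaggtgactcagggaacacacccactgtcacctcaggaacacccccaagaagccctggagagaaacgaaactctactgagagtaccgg
Eif2ak2: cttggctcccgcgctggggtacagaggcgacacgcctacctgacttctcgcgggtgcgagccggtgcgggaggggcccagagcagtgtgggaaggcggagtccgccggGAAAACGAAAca
Oasl1: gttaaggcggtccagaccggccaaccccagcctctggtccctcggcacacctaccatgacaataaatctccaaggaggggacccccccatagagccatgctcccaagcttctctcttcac
The windows lie at chr5:120907496-120907615 (Oas1a), chr5:120887584-120887703 (Oas1g), chr5:120777630-120777749 (Oas3), chr17:78882543-78882662 (Eif2ak2) and chr5:114923150-114923269 (Oasl1), the last on the plus strand and the others on the minus strand. Oas1a and Oas1g are neighbouring paralogues, and their windows were 95.1% identical over 122 aligned positions. Both carried 2 overlapping copies of the core just before the start, at positions -20 to -5 in Oas1a and -18 to -3 in Oas1g. In Oas3 the core lay at positions -75 to -66, and in Eif2ak2 at 19 to 28 after the start. No exact copy was found in the whole 300 base window of Oasl1, Oasl2 or any Adar promoter.

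All values are log2 spot signals after each array was brought to a common 75th percentile, and a gene was called changed at an adjusted p under 0.05 (limma, Benjamini-Hochberg over the 20482 genes). Each array had 47.8% to 55.0% of its spots well above background, the members had 0 saturated spots, and arrays of 1 group correlated at r of 0.980 to 0.994 across genes. Probes differ in brightness, so a signal is compared across groups and never between genes. All 10 macrophage markers listed (among them Csf1r, Adgre1 and Cd68) were well above background on all 12 arrays. Their summed log2 level was 19.65 to 19.94 on recovered, 19.45 to 19.80 on tolerant, 19.41 to 19.68 on acute and 19.39 to 19.45 on untreated arrays. Against untreated cells Cd14 was called higher in recovered, tolerant and acute cells (log2 1.97, 1.29 and 1.38), as was Fcgr1 (1.68, 1.05 and 1.36). Csf1r (0.60), Cd68 (0.59) and Spi1 (0.57) were called higher in recovered cells, and Csf1r also in tolerant cells (0.45). No listed macrophage marker was called lower than in untreated cells. Because whole cultures were measured, less RNA per cell and fewer expressing cells cannot be told apart.

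Each read at its brightest probe, the OAS and double-stranded RNA effector genes were called higher in every LPS state than in untreated cells, apart from Oas1b in tolerant cells. The second Oas1b probe, described below, was called there. At the brightest probes 7 of the 9 were called lower in tolerant than in acute cells, as were 10.7% of all genes. None was called different between recovered and acute cells, where 2.04% of all genes were, so that this count is near the background. Against untreated cells, 9 of 9 were called higher in recovered cells, where 18.5% of all genes were, 8 of 9 in tolerant cells (11.3% of all genes) and 9 of 9 in acute cells (14.3% of all genes). Over the 9 genes the log2 fold change had a median of 2.59 in recovered, 1.83 in tolerant and 2.61 in acute cells, beside 0.06, -0.02 and 0.02 for all genes tested. For each of the 9, no array of the recovered, tolerant or acute group overlapped the untreated arrays, as was so for 25.2%, 17.4% and 18.2% of all genes in that direction. The 3 comparisons share their untreated arrays.

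**Figure D1:**
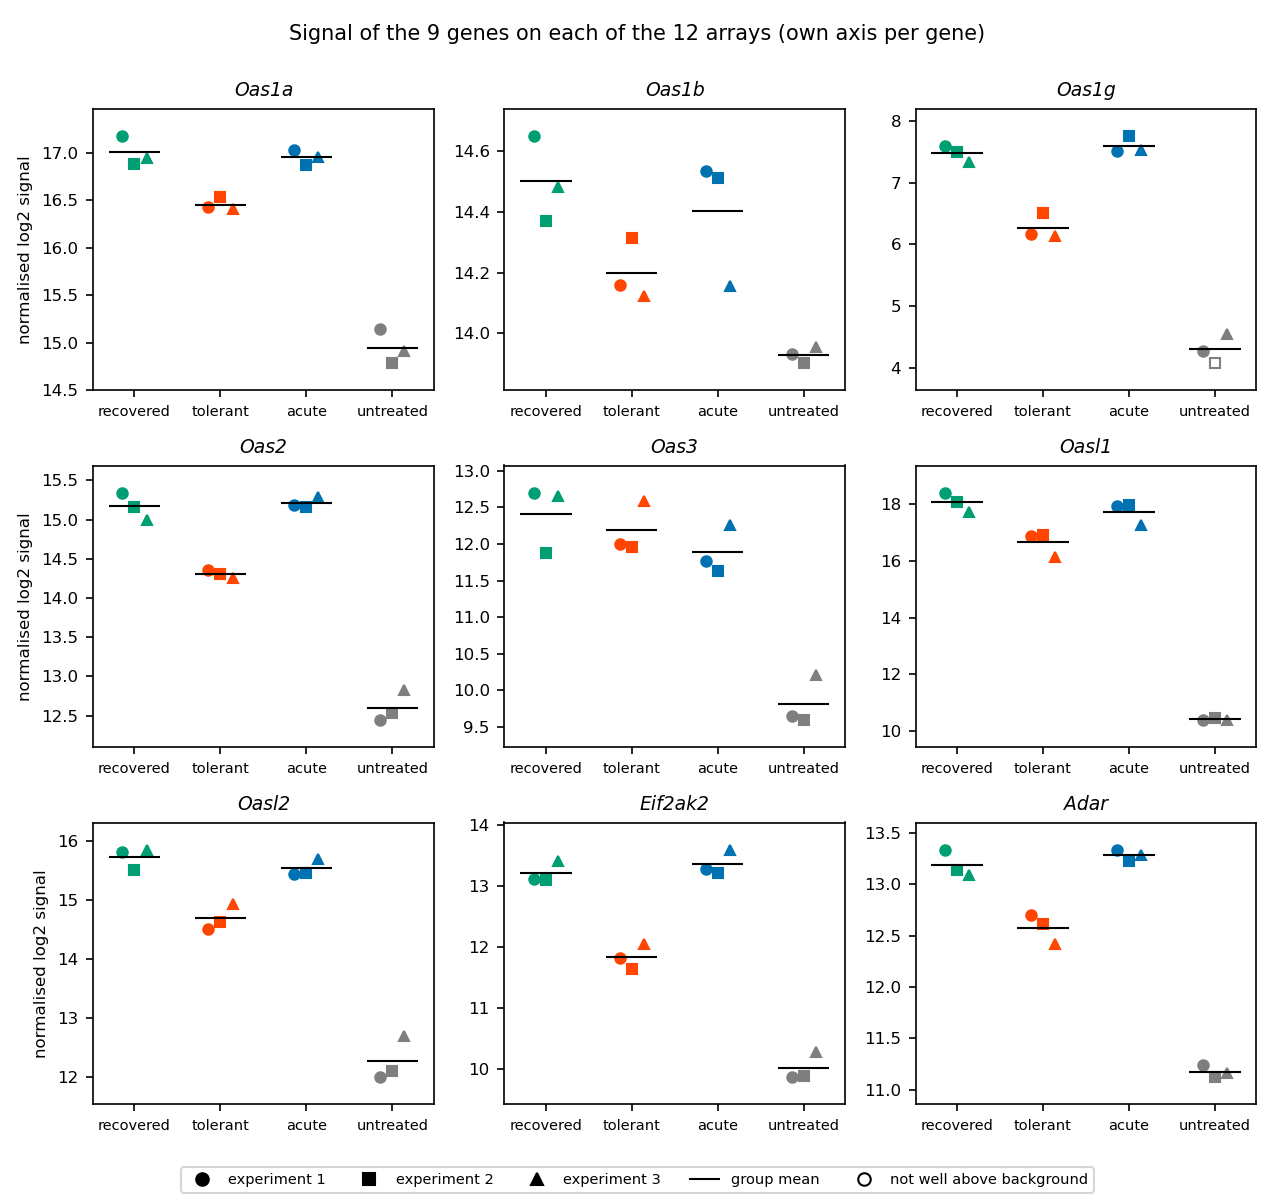
Normalised log2 signal (vertical axis, own range per gene) of the 9 genes on the 3 recovered, 3 tolerant, 3 acute and 3 untreated arrays, with symbols for the experiment and a bar for the group mean. For 7 genes the tolerant arrays lie between the untreated arrays and the recovered and acute ones, whereas the tolerant arrays of Oas3 lie among those of the other LPS groups and the brighter Oas1b probe moves by less than 1 unit.

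Oas1a, a catalytically active synthetase, stepped up in all LPS states and a little less in tolerance. Its log2 signals were 17.18, 16.89 and 16.95 on the recovered arrays, 16.43, 16.53 and 16.41 on the tolerant arrays, 17.03, 16.88 and 16.95 on the acute arrays, and 15.14, 14.78 and 14.91 on the untreated arrays. The recovered and acute arrays were interleaved, the tolerant arrays lay just below them and the untreated arrays far below. Against untreated cells its log2 fold change was 2.06 ± 0.14 (SE) in recovered, 1.51 ± 0.14 in tolerant and 2.01 ± 0.14 in acute cells (limma, adjusted p 8.56e-07, 2.47e-05 and 1.09e-06). Tolerant cells were 0.50 ± 0.14 below acute cells on the log2 scale (adjusted p 0.0265, limma), a call that was lost with quantile normalization (adjusted p 0.132), with the submitters' own matrix (0.0571), when only these 2 groups were fitted (0.055) and when any acute or tolerant array or all of replicate 3 were left out (0.0537 to 0.0998). The probe is also listed for the Oas1g transcript, so it may read both paralogues.

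Oas1g, a second active synthetase, was higher in all LPS states, and its tolerant arrays lay below the recovered and acute ones. It had 7.60, 7.50 and 7.33 on the recovered arrays, 6.17, 6.51 and 6.13 on the tolerant arrays, 7.52, 7.76 and 7.52 on the acute arrays, and 4.26, 4.07 and 4.55 on the untreated arrays, of which 2 of 3 were well above background. The 3 tolerant arrays stood apart from every array of the other groups. Its log2 fold change against untreated cells was 3.18 ± 0.17 in recovered, 1.98 ± 0.17 in tolerant and 3.31 ± 0.17 in acute cells (limma, adjusted p 1.21e-07, 1.28e-05 and 9.36e-08), and tolerant cells fell to 39.7% of the acute signal (adjusted p 0.000347). These sizes depend on how background is treated at low signal: with normexp correction the change was 1.68 in recovered, 0.84 in tolerant and 1.79 in acute cells, and in the submitters' matrix the acute change was 2.25. The probe is also listed for an Oas1a transcript, so it too may read both paralogues. A second Oas1g probe was not well above background on any of the 12 arrays.

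Oas2, a synthetase with a pair of OAS units in its chain, had signals of 15.34, 15.17 and 15.00 on the recovered arrays, 14.36, 14.31 and 14.25 on the tolerant arrays, 15.19, 15.16 and 15.29 on the acute arrays, and 12.44, 12.53 and 12.83 on the untreated arrays. The 3 tolerant arrays lay close together, under all recovered and acute arrays and above all untreated ones. The log2 fold change against untreated cells was 2.57 ± 0.15 in recovered, 1.70 ± 0.15 in tolerant and 2.61 ± 0.15 in acute cells (limma, adjusted p 2e-07, 1.29e-05 and 1.94e-07). Oas2 was lower in tolerant than in acute cells by a log2 fold change of -0.91 ± 0.15 (adjusted p 0.00136) and higher in recovered than in tolerant cells by 0.86 ± 0.15 (adjusted p 0.00241).

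Oas3, the largest family member, with 3 OAS units in 1 chain, was the only one of the 9 whose mean was not lower in tolerant than in acute cells. Its signals were 12.70, 11.88 and 12.65 on the recovered arrays, 12.003, 11.96 and 12.59 on the tolerant arrays, 11.77, 11.63 and 12.26 on the acute arrays, and 9.65, 9.59 and 10.21 on the untreated arrays. The 3 LPS groups overlapped each other, and all 9 of their arrays were above the untreated ones. Against untreated cells the log2 fold change was 2.59 ± 0.28 in recovered, 2.37 ± 0.28 in tolerant and 2.07 ± 0.28 in acute cells (limma, adjusted p 3.2e-05, 0.000151 and 0.000193).

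Oas1b differed between its 2 probes, which are shown here by their last 30 bases because the result turns on which probe is read.
Oas1b brighter probe: agccaaccccaattaaatgttgtttttata
Oas1b second probe: ttggcccagggaatggcactgttaggaggt
Both 60-base probes lie in the same gene on the plus strand in mm9, the brighter at chr5:121274109-121274168 and the second at chr5:121273890-121273949. In the laboratory strain C57BL/6 Oas1b carries a premature stop codon, and RefSeq annotates the gene as a transcribed pseudogene. The array annotation lists that pseudogene transcript for the second probe and not for the brighter one. On the brighter probe the signals were 14.65, 14.37 and 14.48 on the recovered arrays, 14.16, 14.32 and 14.12 on the tolerant arrays, 14.54, 14.51 and 14.16 on the acute arrays, and 13.93, 13.90 and 13.96 on the untreated arrays. On the second probe they were 11.19, 11.08 and 11.43 on the recovered arrays, 10.40, 10.21 and 10.53 on the tolerant arrays, 11.13, 11.22 and 11.70 on the acute arrays, and 8.00, 8.46 and 8.83 on the untreated arrays. The brighter probe placed the 4 groups within 1 unit, with tolerant and acute arrays overlapping, while the second probe kept tolerant arrays apart from all others and the untreated arrays more than 1 unit lower still.

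The brighter Oas1b probe gave a log2 fold change against untreated cells of 0.57 ± 0.14 in recovered, 0.27 ± 0.14 in tolerant and 0.47 ± 0.14 in acute cells (limma, adjusted p 0.00955, 0.239 and 0.0289). The second gave 2.80 ± 0.23, 1.95 ± 0.23 and 2.92 ± 0.23 in the same order (adjusted p 3.07e-06, 0.00012 and 2.29e-06). Between LPS states the brighter probe was not called, at -0.20 ± 0.14 in tolerant against acute cells (adjusted p 0.347) and 0.30 ± 0.14 in recovered against tolerant cells (adjusted p 0.158). The second probe was called in both, at -0.97 ± 0.23 (adjusted p 0.00996) and 0.86 ± 0.23 (adjusted p 0.0214). The calls of the brighter probe against untreated cells were lost in both groups with quantile normalization (adjusted p 0.149 in recovered and 0.552 in acute cells) and in the submitters' matrix (0.227 and 0.797). The acute call was also lost when only these groups were fitted (0.101) or when any untreated array, acute replicate 1 or acute replicate 2 was left out (0.0546 to 0.106).

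The paired probes of Oas1a and Adar did not part in this way. The second Oas1a probe, which ends in taaaaaggatggttcccgagtgagctcctg and is not listed for Oas1g, changed by 2.06 in recovered, 1.46 in tolerant and 2.04 in acute cells against untreated cells on the log2 scale, beside 2.06, 1.51 and 2.01 for the brighter probe, which ends in aagtctgatcaacaataaaccacagcaggt. Its fall in tolerant against acute cells was -0.58 ± 0.23 and was not called without the pairing of experiments (limma, adjusted p 0.1). With the experiment as a block, the same probe passed (adjusted p 0.00222). The second Adar probe changed by 1.91, 1.10 and 2.07 against untreated cells in recovered, tolerant and acute cells.

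**Figure D2:**
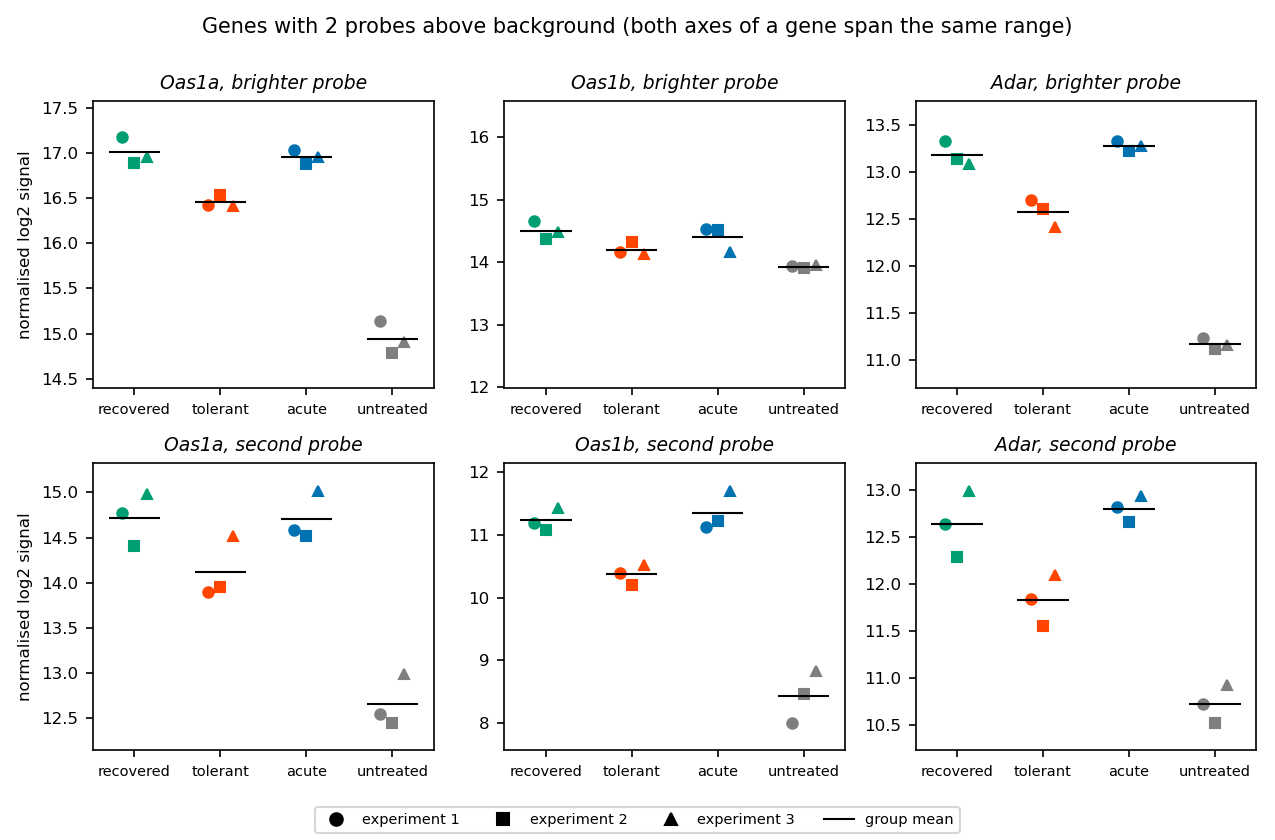
Normalised log2 signal of the brighter (top) and second (bottom) probe of Oas1a, Oas1b and Adar on the recovered, tolerant, acute and untreated arrays, with both axes of a gene spanning the same range. The 2 probes of Oas1a and of Adar step alike across groups, whereas for Oas1b the acute change is 0.47 on the brighter and 2.92 on the second probe.

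Of the OAS-like genes Oasl1 and Oasl2, Oasl1 had the largest change of the set. Both were called lower in tolerant than in acute cells, with the limits given below. Oasl1 encodes a protein without synthetase activity that in mouse restrains translation of Irf7 mRNA. Its signals were 18.39, 18.08 and 17.72 on the recovered arrays, 16.86, 16.92 and 16.15 on the tolerant arrays, 17.93, 17.98 and 17.26 on the acute arrays, and 10.39, 10.47 and 10.40 on the untreated arrays. The untreated arrays lay far under all LPS arrays, and the tolerant arrays lay under every recovered and acute one. Oasl1 was 199.97-fold higher in recovered, 74.7-fold in tolerant and 158-fold in acute than in untreated cells (log2 fold changes of 7.64, 6.22 and 7.30, each ± 0.26, limma adjusted p 5.15e-09, 5.34e-08 and 8.21e-09). In the submitters' matrix the same log2 changes were 3.97, 3.01 and 3.86.

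Tolerant cells held 47.3% of the acute Oasl1 signal (log2 fold change -1.08 ± 0.26, limma adjusted p 0.0124), a call lost without acute replicate 2 (adjusted p 0.054), and recovered cells were 2.68-fold above tolerant cells (adjusted p 0.0037). Oasl2, which in mouse retains synthetase activity, had 15.81, 15.51 and 15.85 on the recovered arrays, 14.51, 14.62 and 14.94 on the tolerant arrays, 15.44, 15.46 and 15.70 on the acute arrays, and 12.003, 12.11 and 12.70 on the untreated arrays. The order of the groups was that of Oasl1, with less distance to the untreated arrays. Its log2 fold change against untreated cells was 3.45 ± 0.20 in recovered, 2.42 ± 0.20 in tolerant and 3.26 ± 0.20 in acute cells (adjusted p 2.66e-07, 1.1e-05 and 4.33e-07). The difference of -0.84 ± 0.20 between tolerant and acute cells was called (adjusted p 0.0124) but not with quantile normalization (0.0894) or in the submitters' matrix (0.123).

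Eif2ak2 had the largest step between tolerant and acute cells of the 9. PKR, its product, is the kinase that links double-stranded RNA to arrest of translation. The signals were 13.13, 13.10 and 13.42 on the recovered arrays, 11.81, 11.64 and 12.04 on the tolerant arrays, 13.29, 13.22 and 13.60 on the acute arrays, and 9.86, 9.87 and 10.28 on the untreated arrays. The tolerant arrays sat between the untreated arrays and the other LPS arrays, overlapping neither. Against untreated cells the change was 9.27-fold in recovered, 3.55-fold in tolerant and 10.3-fold in acute cells (log2 3.21, 1.83 and 3.37, each ± 0.18, limma adjusted p 1.82e-07, 3.66e-05 and 1.36e-07). Tolerant cells held 34.4% of the acute signal (log2 fold change -1.54 ± 0.18, adjusted p 0.000213), and recovered cells were 2.61-fold above tolerant cells (adjusted p 0.000536).

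Adar had signals of 13.34, 13.14 and 13.09 on the recovered arrays, 12.70, 12.61 and 12.42 on the tolerant arrays, 13.33, 13.23 and 13.28 on the acute arrays, and 11.24, 11.12 and 11.17 on the untreated arrays. Its 3 LPS groups were tight, and only recovered and acute arrays overlapped. The log2 fold change against untreated cells was 2.01 ± 0.13 in recovered, 1.40 ± 0.13 in tolerant and 2.11 ± 0.13 in acute cells (limma, adjusted p 5.67e-07, 2.41e-05 and 4.17e-07). The fall in tolerant against acute cells was -0.70 ± 0.13 (adjusted p 0.00313), and recovered cells were 0.61 ± 0.13 above tolerant cells (adjusted p 0.00816). The array does not separate the interferon-inducible long form of ADAR1 from the constitutive short form, since both Adar probes are listed for the same 3 transcripts.

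Tolerant cells were set against acute cells to compare the level after a second LPS exposure with that after a first. The level left from the first exposure was not measured, so the rise due to the second alone is not known. Of the 9, 7 were called lower, as were 10.7% of all genes, and the median log2 fold change was -0.84 beside -0.05 over all genes. The 2 that were not called were Oas1b at its brighter probe (-0.20) and Oas3 (0.30 ± 0.28, limma adjusted p 0.484, 95% confidence interval -0.32 to 0.92). The second Oas1b probe was called lower, as given above. The Oas3 difference ran from 0.09 without tolerant replicate 3 to 0.48 without acute replicate 3. In 7 of 9 the tolerant arrays lay under all acute arrays, as for 18.3% of all genes. Leaving out single arrays, or all arrays of replicate 3, gave between 5 and 7 called members.

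The tolerant and acute arrays of an experiment shared a slide, so the difference was also taken within each experiment. Oas3 was higher in tolerant cells in 3 of 3 experiments, by 0.23, 0.33 and 0.34, while the other 8 genes were lower in tolerant cells in 3 of 3, by as little as -0.04 for Oas1b and as much as -1.59 for Eif2ak2. In each experiment the difference of Oas3 stood above that of every other gene, by 0.37 to 0.61 for Oas1b and by 1.71 to 1.92 for Eif2ak2. The Oas1b values here are those of its brighter probe. Oas3 was singled out after its values were seen. The contrast of Oas3 with each other member was put to an exact permutation test of 3 arrays against 3. That test cannot give a p below 0.1, so it could not decide the question, and no conclusion is drawn from it.

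**Figure D3:**
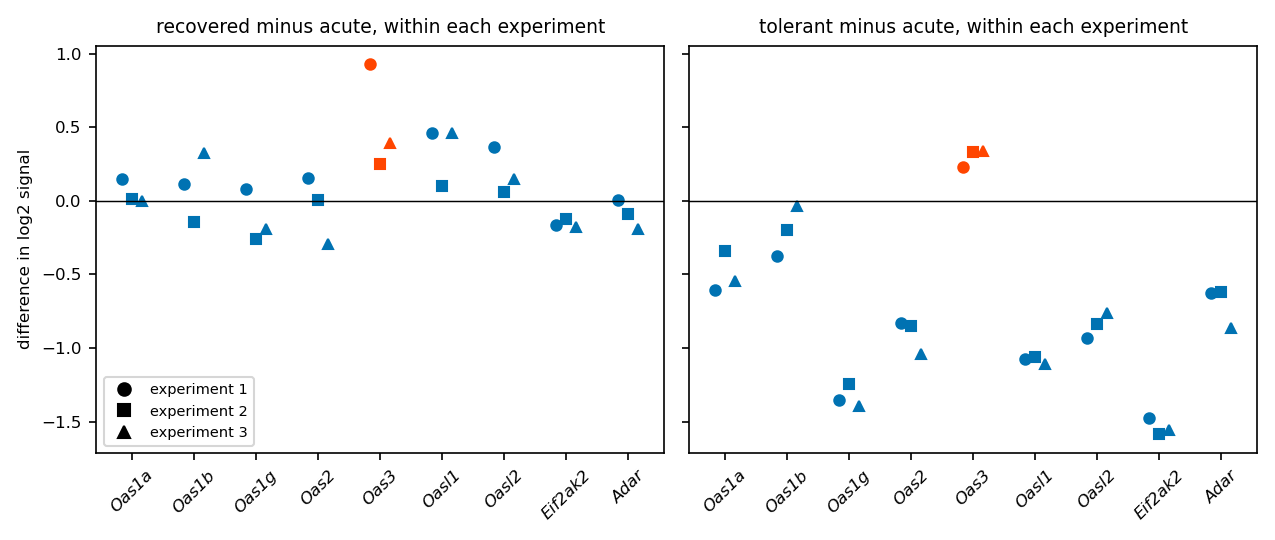
Difference in log2 signal (vertical axis) of recovered minus acute arrays (left) and tolerant minus acute arrays (right) for the 9 genes, 1 symbol per experiment. In the right panel the 3 Oas3 points lie between 0.23 and 0.34 and those of the other 8 genes lie below 0, down to -1.59 for Eif2ak2.

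The long rest was set against the short one by comparing recovered with tolerant cells. In recovered against tolerant cells 7 of 9 were called higher, as were 11% of all genes, with a median log2 fold change of 0.86 beside 0.09 for all genes. The largest differences were in Oasl1 (1.42 ± 0.26), Eif2ak2 (1.39 ± 0.18), Oas1g (1.21 ± 0.17, limma adjusted p 0.000851) and Oasl2 (1.03 ± 0.20, adjusted p 0.0053). Oasl2 was not called in the submitters' matrix (adjusted p 0.0571). Oas1a differed by 0.55 ± 0.14 (adjusted p 0.0189), a call lost with quantile normalization (0.0918), in the submitters' matrix (0.0724), and without tolerant replicate 1, tolerant replicate 3, recovered replicate 1 or all of replicate 3 (0.0525 to 0.0824), and not made on its second probe (0.0928). Oas3, at 0.23 ± 0.28 (adjusted p 0.588), and the brighter Oas1b probe were not called. In 8 of 9 genes the recovered arrays lay above all tolerant arrays, as for 24.8% of all genes, Oas3 being the exception.

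Recovered cells were not told apart from acute cells in any of the 9 genes. None of the 9 was called by limma, where 2.04% of all genes (418) were called and 2885 had an unadjusted p under 0.05, and in 0 of 9 were the 2 groups without overlap, as they were for 19.7% of all genes. With the experiment as a block 10.7% of all genes were called and still 0 of 9, and leaving out arrays gave 25 to 579 genes, the 25 without acute replicate 2. At these shares a count of 0 among 9 is near the background. The log2 fold changes ran from -0.15 (Eif2ak2) to 0.52 (Oas3), with a median of 0.05 beside 0.04 for all genes. The 95% confidence interval was -0.26 to 0.36 for Oas1a, -0.36 to 0.28 for Oas2, -0.55 to 0.24 for Eif2ak2 and -0.38 to 0.19 for Adar. It was wider for Oasl1, at -0.23 to 0.91, and for Oas3, at -0.10 to 1.14. Oas3 was higher in recovered than in acute cells in 3 of 3 experiments, by 0.93, 0.25 and 0.39, the first across slides because recovered replicate 1 lay on the slide of experiment 2. Within slides the difference was 0.66 and 0.39. Over all arrays the log2 fold change of 0.52 had an adjusted p of 0.452 in limma, and of 0.0601 with the experiment as a block.

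**Figure D4:**
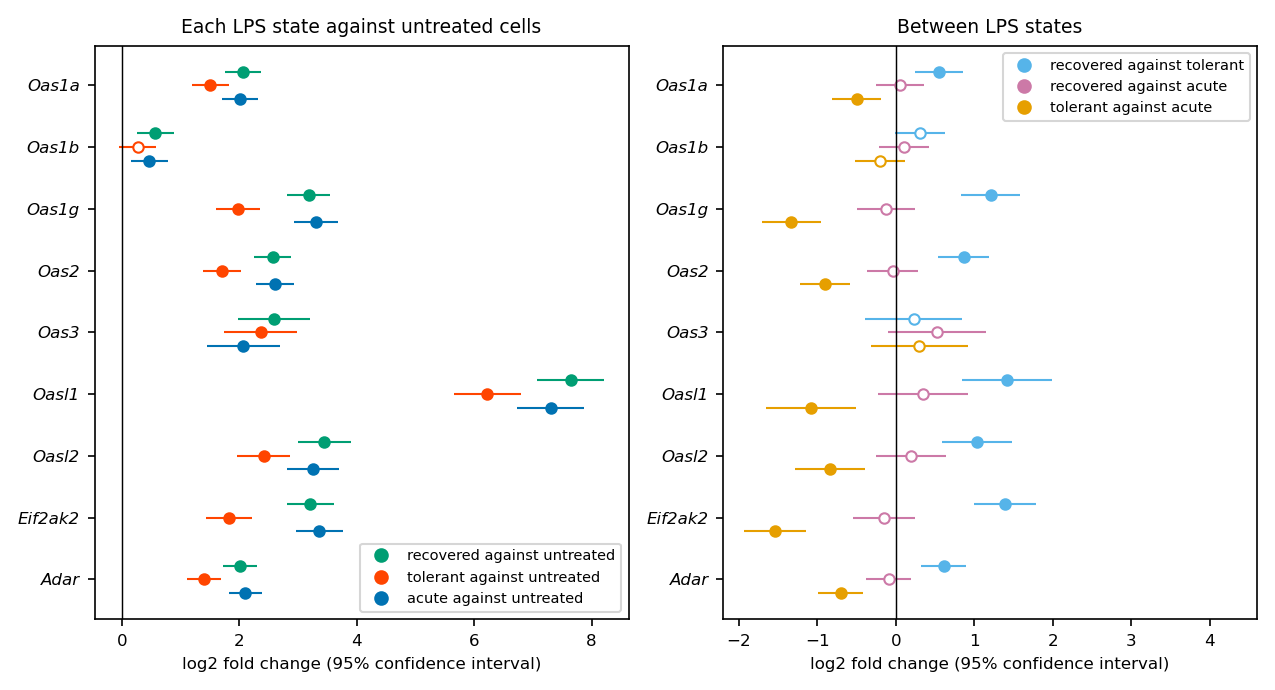
Log2 fold change with 95% confidence interval (horizontal axis) of the 9 genes for recovered, tolerant and acute against untreated cells (left) and for the 3 comparisons between LPS states (right), with filled points for an adjusted p under 0.05. All recovered against acute intervals include 0, and Oas3 is the 1 gene whose tolerant against acute estimate lies above 0.

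The response of these 9 genes was set beside 44 further genes of the same pathways, of which 42 were tested (Oas1h and Adarb2 were not). Of the 42, 22 were called higher and 8 lower in recovered, 22 higher and 1 lower in tolerant, and 18 higher and 8 lower in acute than in untreated cells. Of all genes 18.5%, 11.3% and 14.3% were called higher and 16.9%, 8.63% and 15% lower in the same order, so that the lower counts in recovered and acute cells were near the background. In tolerant against acute cells 9 were called higher and 12 lower, beside 12% and 10.7% of all genes. With the experiment as a block, 10 were higher and 16 lower there, beside 21.6% and 22.9% of all genes.

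Among the other OAS1 paralogues and the genes of oligoadenylate turnover, 5 of 6 were called higher in recovered, 5 in tolerant and 3 in acute than in untreated cells, beside 18.5%, 11.3% and 14.3% of all genes. Oas1f changed by 2.13 ± 0.13 in recovered, 1.48 ± 0.13 in tolerant and 2.08 ± 0.13 in acute cells against untreated cells on the log2 scale (limma, adjusted p 3.42e-07, 1.52e-05 and 4.3e-07). Oas1c rose by 1.45, 0.98 and 0.99 in the same order (adjusted p 2.61e-05, 0.000941 and 0.000491). Oas1e had 7.65, 7.36 and 7.88 on the recovered arrays, 7.01, 6.83 and 7.42 on the tolerant arrays, 7.04, 7.00 and 7.53 on the acute arrays, and 6.23, 6.15 and 6.54 on the untreated arrays. All 9 LPS arrays lay above the untreated ones, and the LPS groups overlapped. Its log2 fold change against untreated cells was 1.32 ± 0.22 in recovered, 0.78 ± 0.22 in tolerant and 0.88 ± 0.22 in acute cells (adjusted p 0.000614, 0.0264 and 0.00912). Pde12, a phosphodiesterase that degrades oligoadenylates, was 0.76 ± 0.23 higher in tolerant than in acute cells (adjusted p 0.0381).

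Around PKR, 11 partners, other eIF2α kinases and downstream genes were tested, of which 2 were called higher and 4 lower in acute than in untreated cells. Of all genes 14.3% were called higher and 15% lower, so that the higher count was near the background. Ppp1r15a and Ppp1r15b, which encode the subunits that direct phosphatase to eIF2α and so oppose PKR, rose by 2.08 ± 0.20 and 2.04 ± 0.17 in acute cells (limma, adjusted p 1.22e-05 and 5.44e-06) and were lower in tolerant than in acute cells, at -1.88 ± 0.20 and -1.16 ± 0.17 (adjusted p 0.00012 and 0.000969). Eif2ak3, the eIF2α kinase PERK of the endoplasmic reticulum, went the other way, at -2.16 ± 0.35 in acute against untreated cells (adjusted p 0.000681) and 1.68 ± 0.35 in tolerant against acute cells (adjusted p 0.00595).

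In the ADAR arm, Ifih1, the sensor MDA5 that responds to unedited duplex RNA, rose 38.8-fold in acute cells (log2 5.28 ± 0.27, limma adjusted p 9.23e-08) and was 5.10-fold lower in tolerant than in acute cells (log2 fold change -2.35 ± 0.27, adjusted p 0.000186). Zbp1, which binds Z-form RNA that ADAR1 also binds, rose by 3.85 ± 0.17 in acute cells (adjusted p 3.85e-08). In tolerant against acute cells it was at -0.33 ± 0.17 (adjusted p 0.193), which passed with the experiment as a block (adjusted p 0.0488). Mavs, the adaptor downstream of MDA5, was at -1.06 ± 0.15 in acute against untreated cells (adjusted p 0.000249) and 0.72 ± 0.15 in tolerant against acute cells (adjusted p 0.00596). Adarb1, which encodes the editing enzyme ADAR2, was not well above background on any acute array and at least 5.20-fold higher in tolerant cells (limma, adjusted p 0.00559). It was at least 3.21-fold lower in acute than in untreated cells (adjusted p 0.0204). In tolerant against untreated cells it was not called, at 0.70 ± 0.52 (adjusted p 0.42).

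Among other double-stranded RNA binding proteins and receptors, 5 of 10 were called higher in each LPS state than in untreated cells, beside 18.5% of all genes in recovered, 11.3% in tolerant and 14.3% in acute cells. In tolerant against acute cells 4 of 10 were called lower, beside 10.7% of all genes. The RNA helicase RIG-I (Ddx58) rose by 3.09 ± 0.18, the endosomal receptor Tlr3 by 3.58 ± 0.25 and the exoribonuclease Pnpt1 by 2.13 ± 0.16 in acute cells (limma, adjusted p 2.6e-07, 9.26e-07 and 1.63e-06). In tolerant against acute cells they stood at -1.24 ± 0.18, -1.71 ± 0.25 and -1.23 ± 0.16 (adjusted p 0.000777, 0.000721 and 0.000371).

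The genes that feed the interferon signal were described last. Ifnb1, which encodes interferon beta, had 13.22, 11.87 and 11.41 on the recovered arrays, 9.76, 8.72 and 7.90 on the tolerant arrays and 14.68, 14.46 and 12.50 on the acute arrays, and was not well above background on any untreated array. Taken against the lowest signal well above background on each array, it was at least 535-fold higher in recovered, at least 51.7-fold in tolerant and at least 1752-fold in acute than in untreated cells. Tolerant cells were at -5.08 ± 0.63 against acute cells (limma, adjusted p 0.000304). Stat2, a subunit of ISGF3, rose by 2.58 ± 0.14 in recovered, 1.94 ± 0.14 in tolerant and 2.78 ± 0.14 in acute cells (adjusted p 1.15e-07, 2.62e-06 and 6.78e-08). Irf1 was lower in tolerant than in acute cells, at -2.13 ± 0.14 (adjusted p 1.34e-05), whereas Ifnar1, a chain of the interferon receptor, was higher, at 1.35 ± 0.21 (adjusted p 0.00116). Against untreated cells Ifnar1 was lower in acute cells, at -0.88 ± 0.21 (adjusted p 0.00801), and not called in tolerant cells, at 0.47 ± 0.21 (adjusted p 0.154). In recovered against acute cells 1 of the 42 genes was called, Ifnar2, the other receptor chain, at 0.57 ± 0.12 (adjusted p 0.041), which is named after its value was seen. That count is near the 2.04% of all genes called. With the experiment as a block 7 were higher and 3 lower there, beside 5.99% and 4.75% of all genes, among them Ifnb1 at -1.71 (adjusted p 0.0283).

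**Figure D5:**
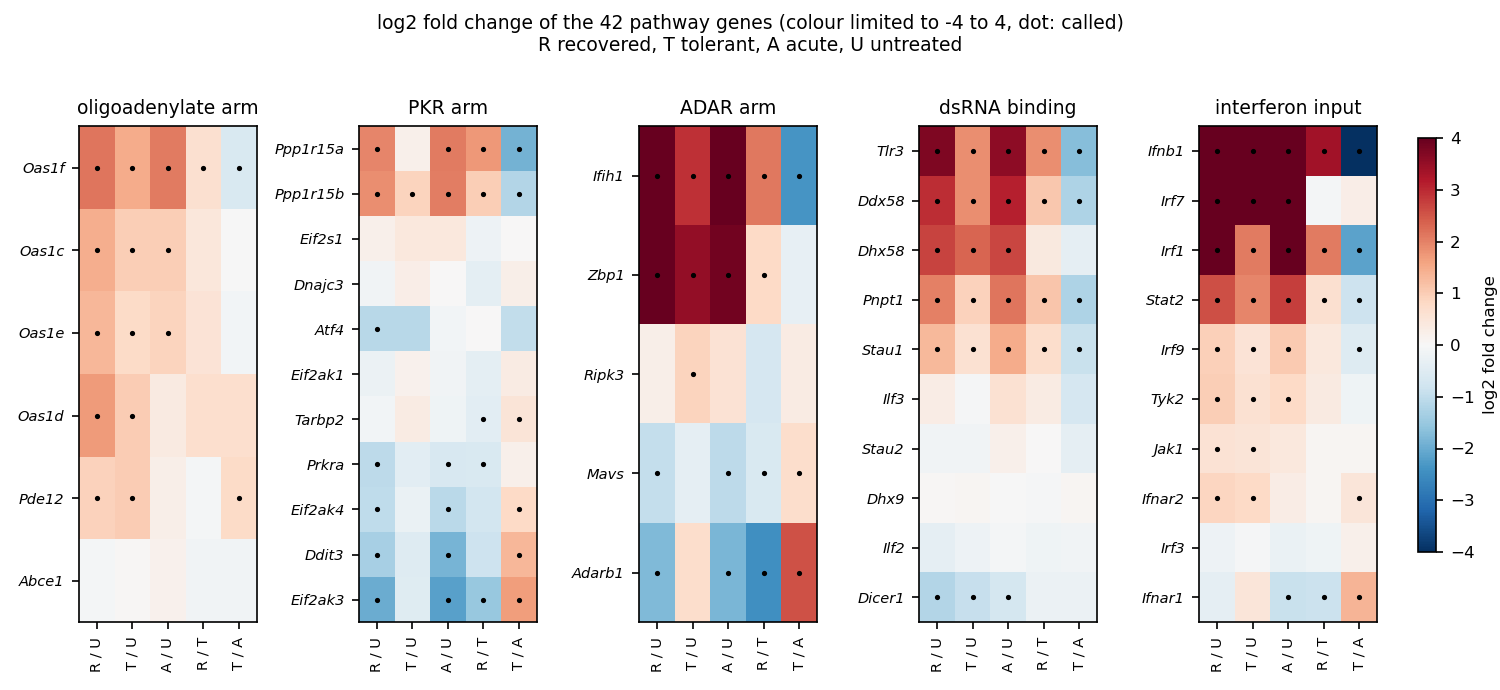
Log2 fold change (colour, limited to -4 to 4) of the 42 tested pathway genes in 5 lists, with columns for recovered, tolerant and acute against untreated cells, recovered against tolerant and tolerant against acute cells, and a dot where the adjusted p was under 0.05. Mavs and Eif2ak3 lie below 0 in acute cells while Ifih1, Zbp1 and Ifnb1 lie far above it.

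The genes whose pattern over the 12 arrays was most like each member, by the smallest root mean square difference of mean-centred log2 signals, came partly from the same family. Oas1a was nearest to Oas1f (0.08), Adar (0.11) and Psmb10, an immunoproteasome subunit (0.12), and Adar to Oas1f (0.09), Oas1a (0.11) and Trim34a (0.13). The brighter Oas1a probe and the Oas1f probe were 76.9% identical, with 14 bases as their longest shared run, and whether this bears on their likeness was not tested. Oas1g was nearest to Ifi204 (0.16), Pnp (0.17) and Xkr8 (0.23), and Eif2ak2 to Pnp (0.18), Slfn10-ps (0.18) and Gm1966 (0.20). Oas2 was nearest to Prpf38a (0.15), Slfn2 (0.16) and Parp10 (0.17), and Oasl2 to Tap1 (0.17), Mfsd7a (0.19) and Noct (0.19). Oasl1, with the widest range, was nearest to Ifi214 (0.37), the antiviral GTPase Mx1 (0.39) and Cd40 (0.46). The nearest to Oas3 were Tapbpl (0.24), 1600014C10Rik (0.32) and N4bp1 (0.33), and among those near to the brighter Oas1b probe were Mpeg1 and Unc50 (0.11 each). These are descriptions over arrays that share groups and experiments.

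Most markers of other cell types were not above background on all arrays of a group. Of 6 fibroblast and stromal markers, 3 were well above background on all arrays in recovered, tolerant and acute cells and 1 in untreated cells, with Col1a1 and Pdgfra on none of the 12. Pdgfrb, a growth factor receptor of stromal cells, was not well above background on any untreated array and was at least 39.97-fold higher in recovered, 35.1-fold in tolerant and 15.4-fold in acute cells (limma, adjusted p 1.8e-08, 5.34e-08 and 1.14e-07). It was also higher in tolerant than in acute cells (log2 1.19, adjusted p 0.00705), while Col1a2 and Dcn were called in none of the 6 comparisons. The summed log2 level of the fibroblast and stromal list was 8.65 to 9.36 on recovered, 8.76 to 8.93 on tolerant, 7.71 to 8.84 on acute and 6.36 to 7.12 on untreated arrays. The neutrophil list had 3 of 7 markers above background on all arrays of each group, with S100a9, Ngp and Ltf on none. S100a8, a calcium-binding protein of myeloid cells, changed by 1.495 in recovered, 2.61 in tolerant and 0.79 in acute cells against untreated cells (limma, adjusted p 0.00455, 0.00025 and 0.104). Camp, a granule peptide, changed by 1.66, 2.25 and 0.86 (adjusted p 0.000501, 0.000132 and 0.0293). Both were higher in tolerant than in acute cells, by 1.82 and 1.39 (adjusted p 0.00291 and 0.00349). Elane, which carried most of the summed level of this list, was called in none of the 6 comparisons. It was at -0.34 in tolerant against untreated and -0.30 in tolerant against acute cells (limma, adjusted p 0.327 and 0.344). The summed level of the neutrophil list was 12.70 to 12.84 on recovered, 12.14 to 12.90 on tolerant, 12.20 to 12.66 on acute and 12.09 to 12.69 on untreated arrays. The dendritic list had 2 of 7 such markers in recovered, 3 in tolerant, 2 in acute and 2 in untreated cells, with a summed level of 16.50 to 16.64 on recovered, 16.42 to 16.57 on tolerant, 16.35 to 16.91 on acute and 16.07 to 16.82 on untreated arrays. Zbtb46, a transcription factor of dendritic cells, rose by 5.34 in recovered, 4.15 in tolerant and 5.31 in acute cells (limma, adjusted p 2.75e-07, 5.13e-06 and 3.06e-07), was lower in tolerant than in acute cells (-1.16, adjusted p 0.0224) and thus moved with the members. Siglech ran from 16.07 on an untreated to 16.89 on an acute array, and so carried most of the summed level of the dendritic list. It was at 0.09 in recovered, 0.002 in tolerant and 0.09 in acute against untreated cells and was called in none of the 6 comparisons. In tolerant cells Ccr7, a chemokine receptor not well above background on any untreated array, was at least 3.78-fold above untreated cells (limma, adjusted p 0.0177). The lymphocyte list had 2 of 9 in each group, at 12.32 to 12.59 on recovered, 11.85 to 12.15 on tolerant, 12.07 to 12.51 on acute and 12.04 to 12.44 on untreated arrays. At most 1 of 5 mast cell and basophil markers passed in any group, at 5.14 to 5.40 on recovered, 4.68 to 5.22 on tolerant, 5.55 to 6.24 on acute and 6.31 to 7.05 on untreated arrays. Kit, a receptor of that list, was not well above background on any tolerant array and was at least 7.48-fold lower there than in untreated cells (limma, adjusted p 0.000202). Of 4 erythroid markers 1 passed in each group, at 6.17 to 6.36 on recovered, 5.51 to 6.12 on tolerant, 5.80 to 6.31 on acute and 5.66 to 6.18 on untreated arrays. These marker genes are named after their values were seen. The part of other cells in the members' changes was not tested.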

How the data were processed

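The deposited scanner files give each spot's intensity, background-subtracted within its array by Feature Extraction 10.7.3.1, per the file headers, with probe positions on mm9. The deposited series matrix holds log2 values of the same arrays, used only as an alternative. The submitters' processing notes name limma without a version, and other steps are not given in the sources used here. Each column of it matched its own array best (12 of 12), its median was 5.34 on every array, the values were on a log2 scale without centring, and how they were normalized is not stated.

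Here log2 of the processed signal was set to a common 75th percentile. A probe had to be well above background on every array of some group, which kept 28073 of 55681, and reading each gene by its brightest probe gave 20482 genes. A gene not above background in 1 group is given as a bound, "at least N-fold". A single limma 3.58.1 model (lmFit and eBayes, R 4.3.3) held all 12 arrays, with two-sided tests and Benjamini-Hochberg adjustment. Data were simulated for tolerant against acute cells over 20482 genes, with independent noise and 100 genes changed at each of 2 sizes. There 34% of changes of log2 1 and 88% of log2 2 were recovered, with 2 false calls. In the real comparison 22.7% of genes were called, which eases the adjusted threshold. The simulated shares are therefore not the power of that comparison. Sequence work and figures used Python 3.11.15.

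The members, the pathway and marker lists were chosen with earlier results of these data known. Further genes were named by rule: up to 3 called genes per list with the smallest adjusted p in acute against untreated and in tolerant against acute cells, and the 3 nearest patterns per member. A few genes that these rules or lists would hold are not reported here. Ifnar2 and the marker genes are named outside that rule, after their values were seen. Arrays came from 3 slides and 2 scan days. The labels number the experiments, and all 18 pairs of arrays with the same number correlated after removal of group means (r 0.274 to 0.773), so the numbers were taken to pair the arrays. The fit with the experiment as a block is an alternative.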

Additional observations from a re-analysis of the deposited data

How the results depend on the processing

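With single arrays or all of replicate 3 left out, members called numbered 9 in recovered, 8 in tolerant and 8 to 9 in acute cells against untreated cells. Between LPS states they numbered 0 for recovered against acute, 6 to 7 for recovered against tolerant and 5 to 7 for tolerant against acute cells. Fits with the replicate block or the slide as a block changed no call of a member read at its brightest probe. With the replicate block, all genes called numbered 2199 for recovered against acute, 9243 for recovered against tolerant, 9113 for tolerant against acute and 7684 for tolerant against untreated cells, beside 418, 4222, 4645 and 4077 without it. With the slide as a block they numbered 1599, 8245, 9619 and 8078 for the same comparisons, and 9310 for acute against untreated cells (6001 without). In the submitters' matrix they numbered 1203, 7414, 7679 and 7090 for those comparisons, 9318 for acute against untreated and 11148 for recovered against untreated cells (7252 in the scanner values). For recovered against acute cells they numbered 99 with no filter on dim probes and 196 when only these groups were fitted. Leaving out arrays gave 25 to 579 for recovered against acute and 2581 to 4517 for recovered against tolerant cells, the 25 when acute replicate 2 was left out. The cause of these shifts was not tested.

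The sign changed only in uncalled log2 differences of recovered against acute cells. Oas1a was at -0.0166 in the submitters' matrix and from -0.0346 (without recovered replicate 1) to 0.112 when arrays were left out, and Oas2 from -0.129 to 0.0819 (without replicate 3). Oas1b ran from -0.0229 (without acute replicate 3) to 0.166, and was at -0.00921 as the mean of its probes and at -0.118 on its second probe with and without the replicate block (a pairing with the second probe that was chosen after seeing the data). The share of called genes that were higher in recovered than in untreated cells was 52.3%, against 42.2% with quantile normalization and 38.9% in the submitters' matrix. The same share in the matrix, beside the scanner values, was 37.3% and 48.9% in acute against untreated, 40.9% and 56.7% in tolerant against untreated, 42.3% and 53.4% in recovered against tolerant, and 49.8% and 71.5% in recovered against acute cells, where quantile normalization gave 60.8%. With no filter on dim probes the median of all genes in recovered against untreated cells was 0.28.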
